A study of Sus scrofa with 8 samples.

Results

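Erythroid cells, the lineage that makes haemoglobin-filled red blood cells, were examined in 8 single-cell RNA libraries of pig embryos. The libraries were prepared from somites on embryonic days 16, 18 and 21 (E16, E18, E21) and from the myotome, the muscle-forming derivative of the somite, on day 28 (E28). At every stage 1 library came from Tibetan pigs (ZZ) and 1 from the Duroc x Tibetan cross (DZ), and embryos of 1 sow were pooled in each. Neither breed carried a transgene or received a treatment. Because stage, tissue at E28 and the sow of a library coincide, they cannot be told apart, and libraries rather than cells served as replicates, 4 early (E16, E18) against 4 late (E21, E28). The p-values below therefore measure the spread between libraries.

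A barcode was counted as an erythroid cell if at least 2 of 5 erythroid genes (ALAS2, GATA1, KLF1, SLC4A1 and AHSP) had a UMI, a single counted RNA molecule, and fewer than 3 of 7 endothelial genes did (PECAM1, CDH5, KDR, PLVAP, ESAM, TIE1, CLDN5). The members were chosen by the measured UMIs of these genes, so no p-value is given for any of them. A sixth gene of the rule, HEMGN, is not among the 21301 measured genes. This gave 1095 erythroid cells among 82394 barcodes within the limits on genes, UMIs and mitochondrial RNA. From E16 to E28 the ZZ libraries held 90, 370, 51 and 59 of them, and the DZ libraries 227, 160, 65 and 73.

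The first red cells of a mammalian embryo arise in the yolk sac, circulate while they still divide, and carry embryonic haemoglobins built from zeta-like and epsilon-like chains. Later cells from the fetal liver replace them, and the chains made then are of the alpha and beta type. As erythroid cells mature they stop dividing, fill with globin mRNA and lose ribosomes and mitochondria. In a dissociated somite or myotome they enter as blood.

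E18-ZZ stood apart from the other libraries. It held the most erythroid cells, these were the shallowest, and globin UMIs in the other barcodes were highest there. The share of erythroid cells, their depth, the summed globin share and the gene tests were therefore also run without it. Genes per cell, the ribosomal and mitochondrial shares, the median globin share per cell and the globin ratios were not. Barcodes of the other cells had medians of 3486 to 6317 UMIs per library, and 17 to 48 barcode sequences were shared between any pair of libraries. In E16-ZZ, 4062 of 10373 deposited barcodes exceeded the mitochondrial limit and were left out. The automatic doublet threshold marked 0 to 3 barcodes in 7 libraries and 320 in E21-ZZ, so doublets were removed only as an alternative.

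The 5 genes that defined the cells are given as levels without a test. Levels are normalised CPM of UMIs summed over the erythroid cells of a library and scaled by edgeR's TMM factors. Since 1 UMI stands for 1 molecule caught at its 3′ end, transcript length does not enter. ALAS2, which catalyses the first step of haem synthesis in red cell precursors, was at 497, 874, 812 and 807 CPM in ZZ from E16 to E28 and 544, 1175, 738 and 1085 CPM in DZ. AHSP, the chaperone of free alpha-like chains, was at 2719, 2119, 2442 and 1421 CPM in ZZ from E16 to E28 and 2654, 2231, 2966 and 1190 CPM in DZ, its lowest levels. The transcription factors were less abundant, GATA1 between 77.6 and 191 CPM and KLF1 between 82.3 and 206 CPM. SLC4A1, the anion exchanger band 3, was lowest in both E16 libraries, at 170 CPM in ZZ, and reached 380 CPM in E28-DZ. In the other cells of the same libraries the early and late means of these 5 genes summed to 9.38 and 1.71 CPM.

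The label of erythroid cells was set beside genes outside the rule. Among genes at a mean of 100 CPM or more in the erythroid cells, the highest ratios to the other cells belonged mostly to globin and red cell genes. The rule genes and 4 genes without a symbol were also among them. The cut of 100 CPM was made on the erythroid cells themselves and favours high ratios, so these ratios are a description and no test of the label. HBZ was 916 times, HBE1 800 times and HBB 698 times the level in the other cells. The globin HBQ1 differed less, with means of 0.0179% of erythroid UMIs early and 0.0174% late, against 0.00200 to 0.00428% in the other cells. The blood group and membrane genes RHCE and RHAG followed at 570 and 248 times, BLVRB, a biliverdin reductase of red cells, at 64.0 times, and FECH, which inserts iron into haem, at 21.0 times. Whole lists of red cell genes, rule genes included, differed less. Haem synthesis genes summed to 2360 to 3622 CPM per library, against 360 early and 275 late in the other cells. Iron genes summed to 4201 to 9257 CPM (3669 and 2767 in the other cells). Erythroid transcription factors summed to 588 to 922 CPM (376 and 497). Macrophage genes were near 0, with 12 genes summing to 0 to 6.86 CPM and 6 of the 12 without a UMI. Of 12 megakaryocyte genes 2 had no UMI, and their sum was 166 CPM in E16-ZZ and 22.9 to 78.6 CPM in the other 7 libraries.

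Of the members 179 had UMIs of 2 rule genes, 274 of 3, 326 of 4 and 316 of all 5. Just inside the threshold, 79.9% of the cells with 2 rule genes gave 10% or more of their UMIs to the 5 globin genes, and 96.7%, 97.5% and 99.7% of those with 3, 4 and 5 did. Just outside, 2.78% of the 1692 barcodes with 1 rule gene and fewer than 3 endothelial genes did. The endothelial bound left out 17 barcodes, 9 of them with 10% or more globin. In all, 63 barcodes outside the rule passed 10% globin, against 1095 members of which 26 were under 2%. The globin share was not part of the rule, and these values are a description.

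Erythroid cells made up a smaller share of the late libraries. At E16 they were 1.43% of the ZZ barcodes (95% exact binomial interval 1.15 to 1.75%) and 2.14% of the DZ ones (1.87 to 2.43%), and at E18 3.59% (3.24 to 3.97%) and 1.55% (1.32 to 1.80%). At E21 they were 0.439% in ZZ (0.327 to 0.577%) and 0.638% in DZ (0.492 to 0.812%), and at E28 0.543% (0.413 to 0.700%) and 0.600% (0.470 to 0.753%). Every early library lay above every late one, and the intervals, which cover counting error only, do not overlap between the periods. The mean share was 2.18% ± 0.993 early and 0.555% ± 0.0863 late (SD, n = 4 each). The difference was -1.62 percentage points with an exact two-sided permutation p of 0.0286, the smallest that 70 splits can give, and 0.0786 after Benjamini-Hochberg adjustment over 11 such tests. With a mitochondrial limit of 5% the means were 3.81% and 0.816%, a difference of -2.99 points. Without E18-ZZ the difference was -1.15 points with an exact permutation p of 0.0571, again the smallest that design allows. A share cannot tell fewer erythroid cells apart from more cells of other kinds.

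**Figure D1:**
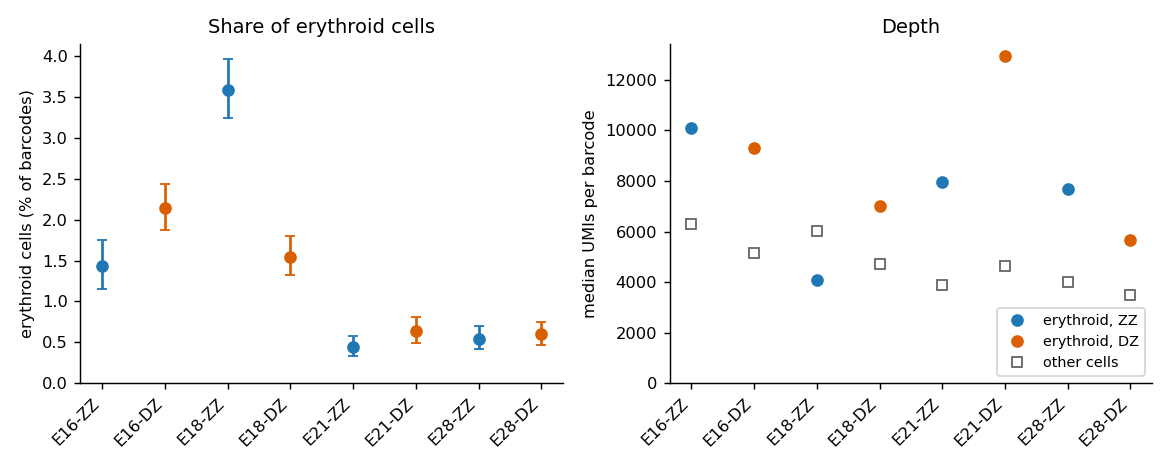
Left, erythroid cells as a percentage of barcodes in each library (y axis) with 95% exact binomial intervals, blue for ZZ and orange for DZ. Right, median UMIs per barcode for erythroid cells (filled circles) and other cells (open squares). The 4 early libraries sit between 1.43% and 3.59%, and the 4 late ones between 0.439% and 0.638%.

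Depth per erythroid cell did not separate the periods. Median UMIs per cell were 10080.5 and 9301 at E16 (ZZ, DZ) and 4075.5 and 6996.5 at E18, and in the late libraries 7963 and 12951 (E21) and 7666 and 5652 (E28), with single cells from 711 to 27905. The late mean was higher by 945 UMIs with an exact permutation p of 0.686, and it was lower by 235 without E18-ZZ and by 520 without E21-DZ. Thinned to 1500 UMIs, a cell showed a median of 460.5, 329, 342 and 315 genes in ZZ from E16 to E28, and of 450.5, 372.5, 324 and 303.5 in DZ. The difference in genes per cell between early and late libraries was -82 (403 ± 63.2 against 321 ± 16.3, SD, n = 4 each, exact permutation p = 0.0571, adjusted 0.105). The 42 members under 1500 UMIs, 21 of them in E18-ZZ, were left out of that count.

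Globin transcripts took a large part of the erythroid UMIs, and a larger one in the late libraries. Of 14 listed globin symbols 5 are in the features, namely the embryonic beta-like HBE1, the embryonic alpha-like HBZ, the adult-type HBB, and the minor alpha-like HBM and HBQ1. On Sscrofa11.1 the RefSeq annotation places HBQ1, HBM and HBZ on chromosome 3 and HBB and HBE1 on chromosome 9, all on the minus strand. HBZ spans chr3:41490758-41492883, HBM chr3:41489312-41490110, HBE1 chr9:4818206-4820243 and HBB chr9:4800683-4801941. Between HBQ1 and HBM the annotation has a pair of alpha-like genes, LOC110259958 and LOC100737768, whose 429 coding bases are 100% identical. Reads from these coding bases cannot be assigned to either alone, and the untranslated 3′ ends were not compared. HBB shares 92.57% of aligned coding bases with LOC100515788 and 81.08% with HBE1. HBB may hold reads of its near copy, which was not tested. A sixth highly abundant gene, ENSSSCG00000007978, has no symbol in the tables used here and is given by its identifier.

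The 250 bases before the start of 4 globin genes are shown. Of these, HBE1, HBZ and HBM were called in the test of late against early libraries described below, and HBB was not. Letters in capitals mark CCAAT or AGATAA, a core of the sequence bound by GATA factors, searched on both strands together with CCACACCC and TATAAA. The sequences are from RefSeq on Sscrofa11.1 and read in the direction of transcription.
HBE1 (chr9:4820244-4820493, minus strand): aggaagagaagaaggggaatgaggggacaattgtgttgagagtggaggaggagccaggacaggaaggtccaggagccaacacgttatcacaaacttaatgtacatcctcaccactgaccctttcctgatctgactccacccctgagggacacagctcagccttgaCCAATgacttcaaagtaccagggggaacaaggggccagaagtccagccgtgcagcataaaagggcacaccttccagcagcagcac
HBB (chr9:4801942-4802191, minus strand): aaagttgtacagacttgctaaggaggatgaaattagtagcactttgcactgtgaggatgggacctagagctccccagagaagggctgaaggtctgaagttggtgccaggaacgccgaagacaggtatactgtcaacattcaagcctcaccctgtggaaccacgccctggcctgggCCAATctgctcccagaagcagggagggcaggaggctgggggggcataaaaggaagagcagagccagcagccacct
HBZ (chr3:41492884-41493133, minus strand): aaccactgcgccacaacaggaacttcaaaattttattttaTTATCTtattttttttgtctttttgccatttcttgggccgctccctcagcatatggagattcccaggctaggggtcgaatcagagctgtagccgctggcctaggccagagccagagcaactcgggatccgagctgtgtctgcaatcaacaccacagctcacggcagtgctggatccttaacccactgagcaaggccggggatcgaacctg
HBM (chr3:41490111-41490360, minus strand): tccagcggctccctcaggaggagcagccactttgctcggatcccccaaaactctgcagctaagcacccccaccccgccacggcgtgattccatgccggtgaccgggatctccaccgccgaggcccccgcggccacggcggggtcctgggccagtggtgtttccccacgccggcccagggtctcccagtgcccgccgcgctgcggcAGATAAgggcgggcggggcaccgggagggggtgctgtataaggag
CCAAT begins 85 bases before the start of HBE1 and 75 bases before that of HBB. AGATAA begins 45 bases before the start of HBM, and in HBZ it lies on the reverse strand, 210 bases before the start. Only this form of the GATA sequence was searched, so other forms are not marked in any window. The starts are the annotated ones and were not checked in these data. Neither CCACACCC nor TATAAA is in these 4 windows. Among 19559 windows of the same length CCAAT was found in 31.9%, AGATAA in 8.08%, TATAAA in 9.77% and CCACACCC in 2.74%, and a match describes letters, not binding.

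The 5 globin genes together took 29.9%, 42.4%, 49.1% and 46.6% of the summed erythroid UMIs in ZZ from E16 to E28, and 33.8%, 41.7%, 50.7% and 46.8% in DZ. All 4 late libraries were above all 4 early ones. The mean share was 37.0% ± 6.12 early and 48.3% ± 1.94 late (SD, n = 4 each), higher by 11.3 percentage points with an exact permutation p of 0.0286 and 0.0786 adjusted over 11 tests. Without E18-ZZ the difference was 13.2 points, and among cells with fewer than 3 genes of every other cell type it was 13.0. With a mitochondrial limit of 5% the difference was 8.93 points, and without both E16 libraries it was 6.23. HBE1 and HBZ supplied nearly all of it. HBE1 alone took 17.4% of UMIs in E16-ZZ and 31.9% in E28-ZZ, while HBZ took 12.0%, 16.0% and 14.0% in ZZ at E16, E18 and E28 and 12.1%, 14.7%, 18.7% and 16.8% in DZ from E16 to E28, and was highest in E21-ZZ.

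**Figure D2:**
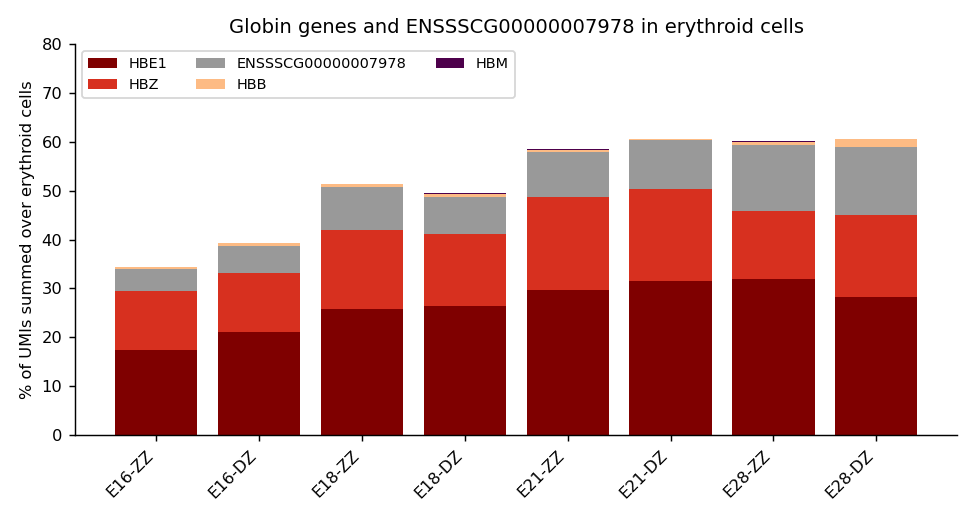
Percentage of the UMIs summed over erythroid cells (y axis) taken by HBE1, HBZ, ENSSSCG00000007978, HBB and HBM in each of the 8 libraries (stacked bars, 1 library per bar). With the barely visible HBQ1 added, the totals are 34.5% in E16-ZZ and 58.5 to 60.7% in the late libraries, and HBB is visible mainly in E28-DZ, at 1.62%.

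In the test of late against early libraries, edgeR's quasi-likelihood test with breed as a covariate, HBE1, HBZ and HBM were higher in the late libraries. HBE1 was at 136132, 245522, 307487 and 341499 CPM in ZZ from E16 to E28 and 185433, 260946, 417299 and 297642 CPM in DZ. It did not overlap between the periods, and its log2 fold change was 0.89 ± 0.19 (SE, adjusted p = 0.0399, edgeR with Benjamini-Hochberg adjustment). HBZ was at 93627, 152323, 197613 and 150118 CPM in ZZ from E16 to E28 and 105554, 145977, 247097 and 177490 CPM in DZ. Its fold change was 0.79 ± 0.19 (edgeR adjusted p = 0.0485), and E28-ZZ lay between both E18 libraries. HBM, a far rarer transcript, was at 328, 390, 256 and 343 CPM in the 4 early libraries and at 1024, 703, 1534 and 1258 CPM in the late ones. It had the largest globin change, 1.98 ± 0.25 on the log2 scale (edgeR adjusted p = 0.00206).

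HBM kept its call when any 1 of the 8 libraries was left out, with fold changes of 1.75 to 2.19. HBE1 lost it without E16-DZ, E28-ZZ or E28-DZ (0.71 to 1.09 over all 8 omissions, edgeR adjusted p up to 0.160). HBZ kept it only without E18-ZZ (0.65 to 0.99, edgeR adjusted p up to 0.175). On the library total alone, without TMM scaling, the median of all genes moved from 0.02 to -0.49, and the fold changes of HBE1 and HBM fell to 0.41 and 1.46, still called, and that of HBZ to 0.32, not called. HBQ1 was at 161 ± 25.4 CPM early and 194 ± 24.5 CPM late (edgeR adjusted p = 0.184). HBB was at 4768 ± 1033 CPM early and 7748 ± 6346 CPM late (SD, n = 4 each, edgeR adjusted p = 0.250), with the late spread set by E28-DZ. All 5 globins, HBB and HBQ1 included, had fold changes above 0 and an unadjusted edgeR p under 0.05, where 946 of all 4787 genes had such a p. The missed threshold therefore does not show that HBB was unchanged.

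ENSSSCG00000007978 was the third most abundant gene of the erythroid cells. It was at 35986, 84153, 97150 and 144707 CPM in ZZ from E16 to E28 and 48023, 76832, 132159 and 146051 CPM in DZ. The periods did not overlap, and the log2 fold change was 1.26 ± 0.26 (edgeR adjusted p = 0.0291), a call lost without E16-DZ, E28-ZZ or E28-DZ. Per 100 UMIs of HBZ there were 38.4, 55.2, 49.2 and 96.4 of this gene in ZZ from E16 to E28 and 45.5, 52.6, 53.5 and 82.3 in DZ. The early and late means of this ratio were 48.0 ± 7.57 and 70.3 ± 22.8 (exact permutation p = 0.143), since both E21 libraries sat with the early ones.

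Ratios among the globins with a symbol had no exact permutation p under 0.05. HBZ stood at 55.9 to 68.8 UMIs per 100 of HBE1 in the early libraries and at 44.0 to 64.3 in the late ones, lowest in E28-ZZ, an exact permutation p of 0.514. HBM per 100 HBZ averaged 0.281 ± 0.0958 early and 0.633 ± 0.312 late (exact permutation p = 0.0857). HBB per 100 HBE1 averaged 2.34 ± 0.243 early and 2.44 ± 2.24 late (exact permutation p of 1), with 5.75 in E28-DZ and 0.815 in E21-DZ.

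Ribosomal protein transcripts took a smaller share of all UMIs, globins included, in the late erythroid cells. The 59 ribosomal protein genes with a symbol took 15.4%, 10.3%, 8.81% and 8.25% of UMIs in ZZ from E16 to E28, and 14.7%, 12.5%, 9.32% and 7.74% in DZ. In the other cells they took 18.4 to 21.9%. The means were 13.2% ± 2.32 early and 8.53% ± 0.681 late (SD, n = 4 each, exact permutation p = 0.0286, adjusted 0.0786). The 13 mitochondrial genes took 3.43% ± 0.769 early and 2.11% ± 0.236 late. Their test is 1 of the 11 over which the permutation p-values were adjusted. Its p-value is not given, because barcodes were kept by a limit on these same genes. That limit left out 4062 barcodes in E16-ZZ and 129 in E28-DZ. These shares and the globin share are parts of 1 total, so more of one leaves less for the others. The 5 globin genes and ENSSSCG00000007978 together took 43.6% ± 8.06 early and 60.0% ± 1.03 late, and up to 0.181% in the other cells. The ribosomal share of the remaining UMIs was not tested, so a lower share of all UMIs does not show fewer ribosomal transcripts.

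Globin UMIs were also found in the other barcodes, where they can be free RNA. HBE1 had a UMI in 98.7% of the other barcodes of E18-ZZ and in 15.2 to 83.4% of those of the other 7 libraries, and in 21.1 to 100% of barcodes with 3 or more endothelial genes, which should lack it. The 5 globin genes took 0.150% of the other cells' UMIs in E18-ZZ and 0.0212 to 0.0876% elsewhere. AHSP, the most widespread rule gene there, had a UMI in 4.48% of the other barcodes of E18-ZZ and in 97.8% of its erythroid cells, a contrast that the rule itself sets.

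The globin share varied widely between single erythroid cells. Its median per library was 37.4%, 51.8%, 53.8% and 51.2% in ZZ from E16 to E28 and 38.2%, 45.5%, 52.0% and 52.5% in DZ, so that E18-ZZ lay within the late range. The means of these medians were 43.2% ± 6.75 and 52.4% ± 1.10 (SD, n = 4 each, exact permutation p = 0.0571, adjusted 0.105). Of the 1095 cells 487 gave 20 to 50% of their UMIs to globins, 475 gave 50% or more, and the others gave under 20%. Cells under 20% were 23.3%, 10.3%, 1.96% and 6.78% of the erythroid cells in ZZ from E16 to E28 and 22.0%, 5.00%, 3.08% and 12.3% in DZ, so both E16 libraries had the most and E28-DZ had more than E18-DZ.

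**Figure D3:**
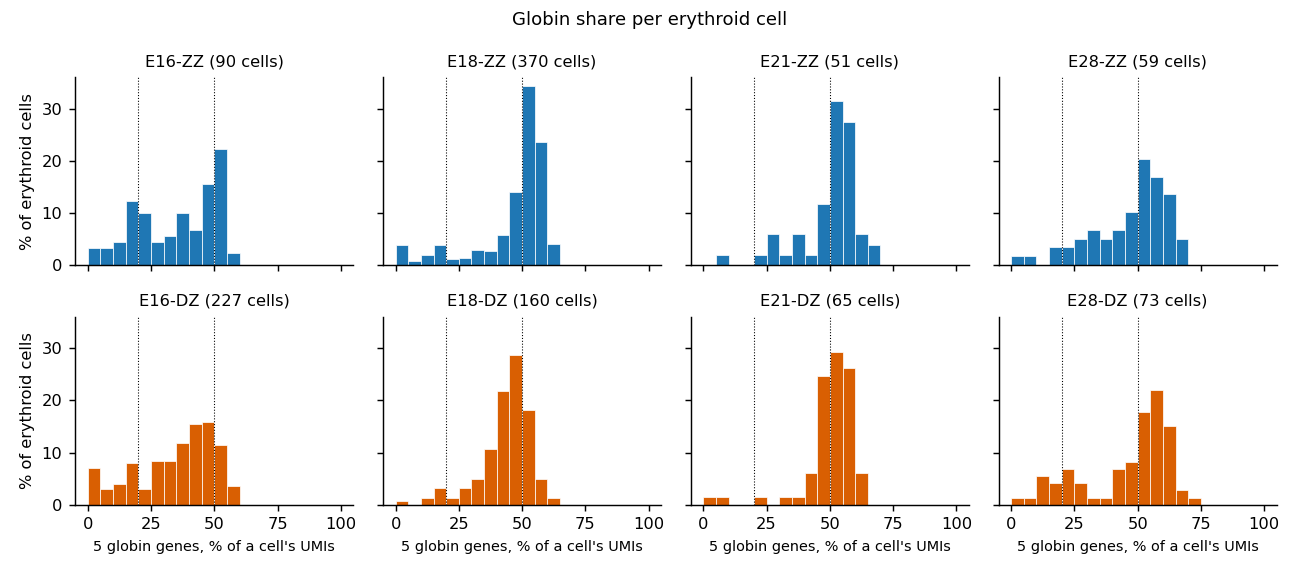
Histograms of the globin share per erythroid cell (x axis, the 5 globin genes as % of a cell's UMIs, in steps of 5%) as % of the erythroid cells (y axis) in each library, with dotted lines at 20% and 50%. E16 libraries have a lower tail with 21 and 50 cells under 20%, and late libraries gather above 50%.

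Genes of other cell types were counted in cells by globin share. At least 3 genes of another cell type had a UMI in 76 of the cells under 20%, in 77 of the 487 between, and in 11 of the 475 at 50% or more. The top doublet scores fell on 40, 44 and 9 of them. The classes also differed in depth, in E18-ZZ with medians of 9284, 4310 and 3703 UMIs, and in stage, since the 4 late libraries held 1, 2, 4 and 9 of the cells under 20%, and these counts were not tested. Outside the globins and ENSSSCG00000007978, epithelial genes were at 2689, 818 and 719 UMIs in CPM of the remainder in the 3 classes, mesenchymal genes at 982, 604 and 177, and neural genes at 272, 144 and 38.3. Haem synthesis and iron genes ran the other way. Haem synthesis genes were at 2102, 6127 and 9354, of which the rule gene ALAS2, used to select the cells, held 345, 1527 and 3015. Iron genes were at 5776, 11547 and 19146. Progenitor markers were sparse in all classes, with KIT at 12 UMIs and MYB at 7 UMIs in the cells under 20%. The epithelial list holds KRT8, which was called higher in erythroid cells in the interaction given below. The part of doublets and free RNA in these differences was not tested.

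HBB shares were highest in a few cells of E28-DZ. In E28-DZ it took 1.62% of the erythroid UMIs, against 0.258 to 0.607% in the other 7 libraries. Cells over 2% HBB occurred in 7 of the 8 libraries, 6 of 59 in E28-ZZ and 5 of 73 in E28-DZ. In E28-DZ 3 cells gave more than 10% of their UMIs to HBB, while the highest value in the other libraries was 9.37%, in E18-ZZ. The most extreme cell gave 40.0% to HBB, 40.6% to ENSSSCG00000007978, 0.0166% to HBE1 and 0.0664% to HBZ, and held 6028 UMIs from 416 genes with UMIs of 4 rule genes. In the other 2 cells HBB took 20.3% and 11.6%, HBE1 0 UMIs in both, and ENSSSCG00000007978 14.2% and 7.97%, and these cells held 2116 and 2328 genes, with UMIs of 2 rule genes each. Without these 3 cells HBB was at 0.369% in E28-DZ. The cells were chosen after their values were seen.

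ENSSSCG00000007978 was also high, relative to HBZ, in globin-rich barcodes that missed the rule in E18-ZZ and at E21 and E28. Each E28 library had 10 barcodes over 10% globin outside the erythroid cells. In them HBZ was at 10.7 and 21.4 UMIs per 100 of HBE1, against 44.0 and 59.6 in the erythroid cells of the same libraries, and ENSSSCG00000007978 was at 1023 and 577 per 100 of HBZ, against 96.4 and 82.3. In the 3 and 4 such barcodes of E21 (ZZ, DZ) HBZ was at 33.5 and 42.3 per 100 of HBE1, against 64.3 and 59.2 in the erythroid cells, and ENSSSCG00000007978 at 168 and 177 per 100 of HBZ, against 49.2 and 53.5. At E16 and E18 such barcodes had 55.9 to 70.5 HBZ per 100 HBE1 in the 3 libraries with more than 1 of them, near the erythroid cells' own 56.9 to 68.8, and ENSSSCG00000007978 was at 43.6 and 45.7 per 100 of HBZ at E16 (38.4 and 45.5 in the erythroid cells) and at 84.8 in E18-ZZ (55.2). No test was made of these few barcodes.

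Across all genes, 93 of 4787 tested differed between late and early erythroid cells at an adjusted p under 0.05 (1.94%, edgeR quasi-likelihood test with Benjamini-Hochberg adjustment), 61 higher (1.27%) and 32 lower (0.668%) in the late libraries. Without TMM scaling the split was 61 higher and 787 lower, so the direction of a gene is relative to the median gene. Of the 93 calls 12 held whichever library was left out, and the number called was 15 without E28-ZZ, 26 without E16-DZ, 35 without E28-DZ and 51 without E16-ZZ. Without both E16 libraries 3 genes were called and without both E28 libraries 1, all lower. Only 24 of the 61 higher calls, and 0 of the 32 lower ones, were at more than 2 times the level in the other cells of the same libraries. By CPM, 135 genes (2.82%) were higher in every late than in every early library and 490 (10.2%) lower. These CPM were scaled by TMM factors over all measured genes, while the tests took theirs from the genes past the filter. Every late sum, at 414054 to 824794 UMIs, was also smaller than every early one, at 912113 to 2219386 UMIs. The part of scaling and depth in these counts was not tested.

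Among the 24 were SCT, TSPO2, TRIM10, TENT5C and CDKN2C. SCT, the gene of the hormone secretin, was at 0, 11.7, 39.3 and 23.5 CPM in ZZ from E16 to E28 and 0.394, 6.58, 62.4 and 33.1 CPM in DZ, against 0.112 and 0.333 in early and late other cells. Its log2 fold change was 3.20 ± 0.68 (edgeR adjusted p = 0.0343), a call lost in 6 of the 8 fits without 1 library (2.55 to 4.68 over all 8). TSPO2, a membrane protein of maturing red cells, was at 9.66 ± 3.65 CPM early and 28.6 ± 8.58 CPM late, 1.70 ± 0.34 on the log2 scale (edgeR adjusted p = 0.0227). TRIM10, known for its part in terminal erythroid differentiation, went from 18.4 ± 1.65 to 35.7 ± 6.70 CPM (1.12 ± 0.27, edgeR adjusted p = 0.0485). TENT5C, a poly(A) polymerase, went from 57.7 ± 27.1 to 142 ± 29.5 CPM (1.46 ± 0.34, edgeR adjusted p = 0.0441), and CDKN2C, an inhibitor of cyclin-dependent kinases, from 11.9 ± 4.18 to 29.8 ± 6.51 CPM (1.54 ± 0.34, edgeR adjusted p = 0.0401). TSPO2, TRIM10, TENT5C and CDKN2C kept their calls in 4, 1, 3 and 1 of the 8 fits that left out 1 library. Besides ENSSSCG00000007978, the unnamed ENSSSCG00000033190 rose from 35.0 ± 16.9 to 106 ± 23.8 CPM (1.77 ± 0.30, edgeR adjusted p = 0.0111) and held this call without each library.

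FTL, HAMP, F10 and SPINK4 were also among them. FTL, the light chain of the iron store ferritin, was at 2004, 2649, 3302 and 3773 CPM in the early libraries and at 4430, 6046, 6291 and 5881 CPM in the late ones, while the other cells went from 2481 to 1803. Its log2 fold change was 1.13 ± 0.20 (edgeR adjusted p = 0.0131), and the call was lost without E16-DZ or E28-ZZ at 1.01 and 0.98. HAMP, the iron hormone hepcidin, was at 25.8 ± 12.4 CPM early and 58.3 ± 31.3 CPM late (1.35 ± 0.27, edgeR adjusted p = 0.0227), with overlapping libraries. F10, coagulation factor X, went from 5.60 ± 1.65 to 21.6 ± 10.3 CPM (2.04 ± 0.38, edgeR adjusted p = 0.0166) and SPINK4, a protease inhibitor, from 30.7 ± 6.63 to 65.2 ± 20.5 CPM (1.25 ± 0.28, edgeR adjusted p = 0.0415). HAMP, F10 and SPINK4 kept their calls in 4, 6 and 2 of the 8 fits without 1 library. Apart from the globins and FTL, the genes named here from the 24 were chosen after their values were seen.

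**Figure D4:**
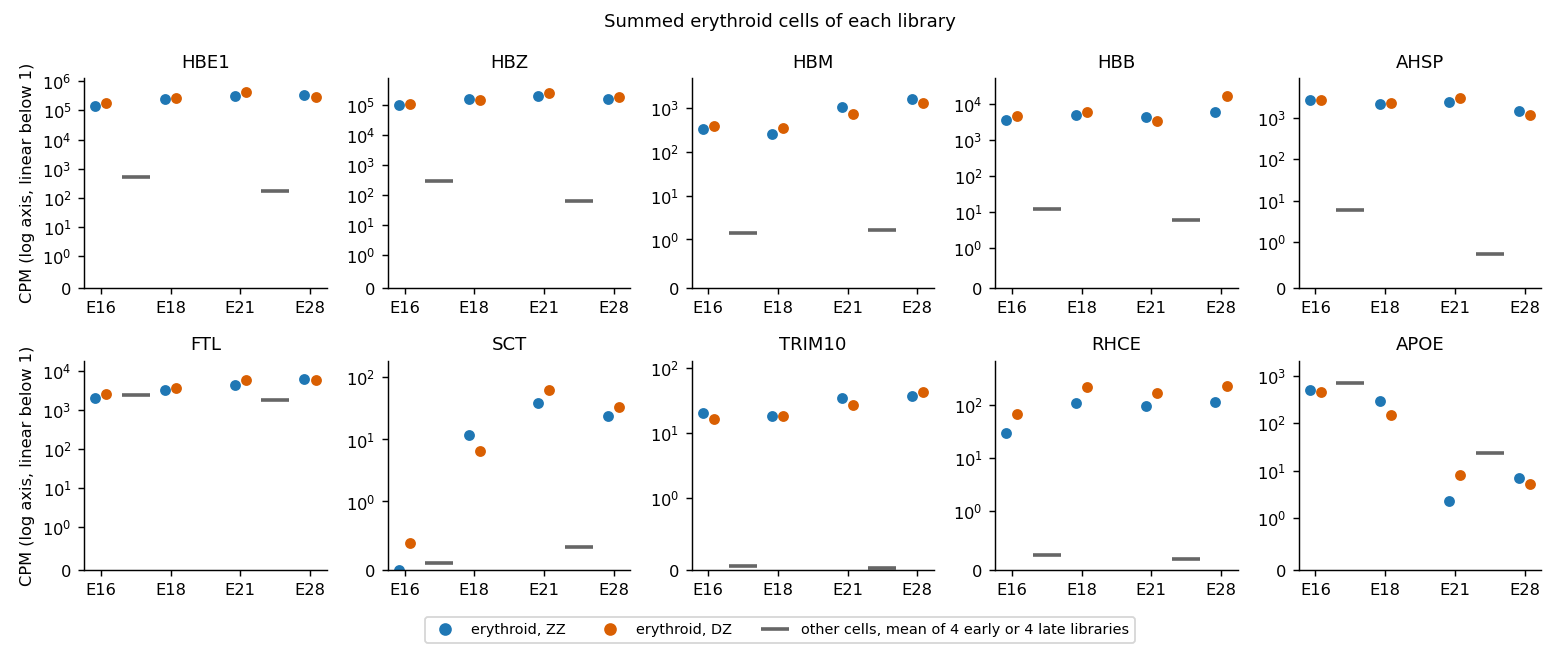
CPM of 10 genes in the summed erythroid cells of each library (points, blue ZZ, orange DZ, log axis that is linear below 1) by stage, with grey bars for the mean of the other cells in the early and late libraries. HBM, FTL, SCT and TRIM10 have all 4 late points above all 4 early ones, and APOE has all late points below.

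The largest changes lay in genes that the other cells express more. By the naming rule the 10 largest increases without overlap were MATN4, CHODL, MYLPF, ENSSSCG00000023322, ZFHX4, OGN, STMN2, GAS2, HOXC8 and PTN, all at 0.103 to 0.291 times the level in the other cells. OGN, a proteoglycan of connective tissue, went from 3.53 ± 1.42 to 57.4 ± 54.2 CPM, and from 11.9 to 493 CPM in the other cells. MYLPF, a light chain of fast muscle myosin, had 329 of its late CPM in E28-DZ. STMN2, a neuronal gene, was at 4.84 ± 4.42 CPM early and 84.7 ± 51.5 CPM late, and in the other cells at 57.0 and 809.

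The largest decreases were also in genes that the other cells express more. KRT18, a keratin of simple epithelia, was at 176, 378, 137 and 70.7 CPM in the early libraries and at 2.31, 0, 0 and 0 CPM in the late ones (edgeR adjusted p = 0.000544), while the other cells went from 1557 to 10.5 CPM. APOE, an apolipoprotein, was at 501, 471 and 298 CPM in E16-ZZ, E16-DZ and E18-ZZ, lower in E18-DZ, and at 2.31, 8.00, 7.06 and 5.09 CPM in the late libraries, a log2 fold change of -5.70 ± 0.46 (edgeR adjusted p = 4.64e-05), and in the other cells it went from 711 to 23.9 CPM. FABP3, PRTG, DSC2, DSP, KRT14, RELN, ENSSSCG00000009239 and ENSSSCG00000029257 completed the 10. Lower late were also NPM1 of the nucleolus, from 709 ± 315 to 242 ± 13.4 CPM (edgeR adjusted p = 0.0186, a call lost in 4 of the 8 fits without 1 library), and the chromatin protein HMGA1 from 492 ± 129 to 124 ± 68.3 CPM (edgeR adjusted p = 0.0102, lost without E28-ZZ), where the other cells had 1556 and 452 CPM of HMGA1.

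Markers of other cell types had these levels beside the calls. Of 7 epithelial genes, all with UMIs, the sum was 364 to 1240 CPM in early and 84.1 to 282 CPM in late erythroid sums, against 4761 and 54.0 CPM in the other cells. The late erythroid sums thus lay above the other cells. KRT8 of this list was at 2.03 to 66.4 CPM in the late other cells and had an interaction of 4.72, higher in erythroid cells. This sum therefore need not mark other cells alone. The 11 mesenchymal genes summed to 127 to 322 CPM early and 236 to 1141 CPM late, with 236 and 248 at E21, against 1980 and 3711 in the other cells. The 10 muscle genes summed to 39.4 to 187 CPM early and to 48.6, 157 and 56.5 CPM in E21-ZZ, E21-DZ and E28-ZZ, within the early range, and to 1268 CPM in E28-DZ. The 10 neural genes summed to 19.7 to 111 CPM early and 43.2 to 217 CPM late, with overlap. Their part in the calls was not tested, and in cells with fewer than 3 genes of every other type 86 genes differed, 52 higher and 34 lower, 50 of them among the 93, and HBE1, HBZ, HBM and FTL were among the calls.

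Gene lists of red cell biology were described by their counts and median fold changes, beside a median of 0.02 over all genes tested. Of the 5 globins 3 were higher and 0 lower, with a median of 0.84 log2 units, against the background of 1.94% of genes called. Of 13 genes for iron uptake and handling 3 were higher (FTL, HMOX1 and ISCU, median 0.21). HMOX1, which breaks haem down, was at 6.10 ± 3.32 CPM early and 27.3 ± 15.6 CPM late, and ISCU, a scaffold for iron-sulphur clusters, at 101 ± 18.1 and 162 ± 24.2 CPM. Of 14 genes of terminal maturation and organelle clearance TRIM10 and RIOK3 were higher (median 0.50). RIOK3, a kinase linked to red cell enucleation, went from 38.4 ± 6.85 to 78.8 ± 26.0 CPM (edgeR adjusted p = 0.0441). HMOX1, ISCU and RIOK3 each kept the call in 2 of the 8 fits without 1 library.

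Genes of haem synthesis had no call beside the globins' increase. Of 12 outside the rule 0 were called by edgeR or DESeq2 (4 at an unadjusted p under 0.05, where 946 of all 4787 genes were), with a median of 0.02. Without TMM scaling CPOX, PPOX and ABCB10 of this list were called lower, in a fit that called 787 of all 4787 genes lower. FECH was at 342 ± 93.8 CPM early and 389 ± 63.6 CPM late (edgeR adjusted p = 0.235), ALAD, the second enzyme of the path, at 376 ± 64.6 and 304 ± 90.5 CPM (edgeR adjusted p = 0.751), and UROD at 300.1 ± 35.8 and 291 ± 115 CPM (edgeR adjusted p = 0.842). The red cell membrane and skeleton had 0 of 15 called by either tool, 7 at an unadjusted p under 0.05, and a median of 0.61. With fewer than 3 genes of other types the calls of this list included DMTN, a protein of the membrane skeleton, as higher. Among 13 erythroid transcription factors outside the rule and 6 genes of erythropoietin and KIT signalling 0 were called by either tool (3 and 2 at an unadjusted p under 0.05, medians 0.23 and 0.59). NFE2 was at 70.9 ± 16.7 and 93.3 ± 21.4 CPM, TAL1 at 56.3 ± 7.13 and 64.0 ± 8.08 CPM, and EPOR, the erythropoietin receptor, at 41.4 ± 16.9 and 50.5 ± 12.8 CPM.

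Redox and metabolic genes had 1 of 18 lower, the glycolytic enzyme ENO1, at 519 ± 92.6 CPM early and 227 ± 26.6 CPM late (log2 fold change -1.01 ± 0.19, edgeR adjusted p = 0.0166, a call lost without E16-DZ or E28-ZZ), with a median of -0.13. PRDX2, the abundant red cell peroxiredoxin, was at 3351 ± 210 and 3150 ± 639 CPM (edgeR adjusted p = 0.809), and GPX1, a glutathione peroxidase, at 1413 ± 277 and 1917 ± 325 CPM (edgeR adjusted p = 0.110). Of the S phase and the G2 and M phase lists edgeR called 0 genes. Of 13 S phase genes 12 had fold changes below 0 (median -0.64, 6 at an unadjusted p under 0.05), and DESeq2 called MCM7. Of 15 G2 and M phase genes 13 were above 0 (median 0.41, 2 at an unadjusted p under 0.05, 0 by DESeq2). Among 6 genes of cell cycle exit CDKN2C was higher, and DESeq2 also called CDKN1B.

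**Figure D5:**
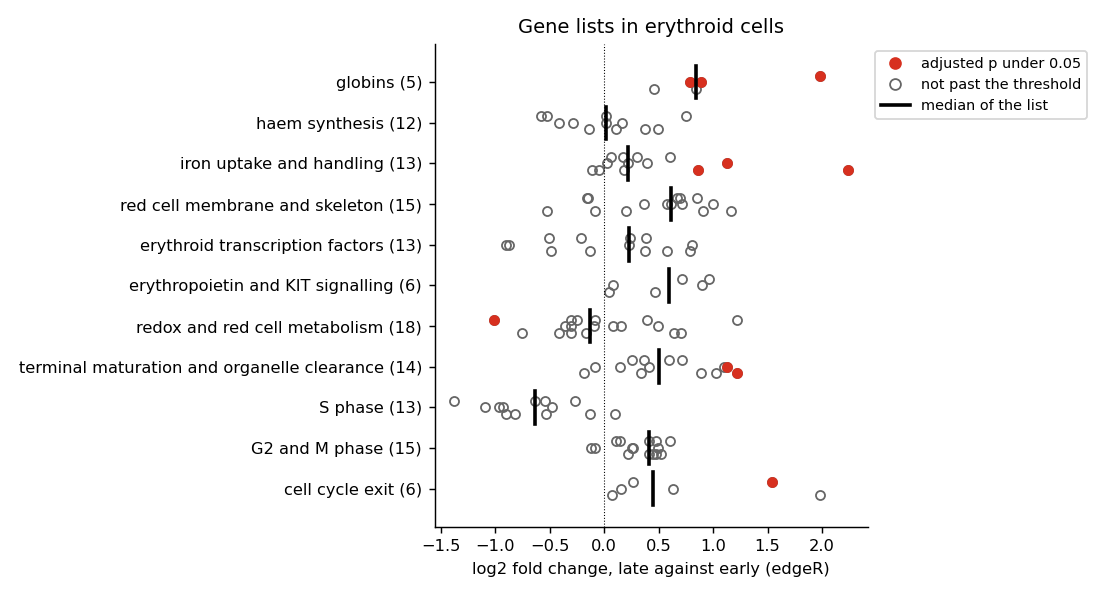
Log2 fold change of late against early erythroid cells (x axis, edgeR) for the genes of 11 lists (rows, number of genes tested in brackets), red where the adjusted p is under 0.05, with a black bar at the median of each list. Globins have 3 red points of 5 and a median of 0.84, and haem synthesis has none of 12 and a median of 0.02.

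Neighbouring stages were compared with the breed as a block. These steps share libraries, so each is given by its own values. Between E16 and E18, 66 of 5344 genes were called (1.24%, edgeR), 41 higher (0.767%) and 25 lower (0.468%) at E18, a count that includes the rule gene ALAS2. RHCE, an Rh blood group protein, went from 30.0 and 67.1 CPM at E16 to 111 and 216 CPM at E18 (log2 fold change 1.86 ± 0.21, edgeR adjusted p = 0.00123) and held its call without each library. PTPRN, best known from neuroendocrine granules, went from 12.6 CPM or less at E16 to 61.1 and 60.9 CPM at E18 (2.59 ± 0.37, edgeR adjusted p = 0.00363) and also held its call. It was at 0.474 and 0.861 CPM in early and late other cells. CISH, an inhibitor that erythropoietin signalling induces, went from 10.3 and 10.3 to 23.8 and 36.2 CPM (1.61 ± 0.35, edgeR adjusted p = 0.0383), and the call was lost without any of the 4 libraries of E16 and E18 at 1.17 to 1.95. The linker histone gene H1F0 rose from 140 and 109 to 336 and 553 CPM (1.89 ± 0.27, edgeR adjusted p = 0.00363), a call lost without E18-DZ.

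ISG15 and IFI6, both induced by interferon, were among the genes lower at E18. ISG15 was at 96.9, 0, 0 and 141 CPM in ZZ from E16 to E28 and 163, 25.5, 38.4 and 30.6 CPM in DZ (log2 fold change E18 against E16 -3.62 ± 0.82, edgeR adjusted p = 0.0416). IFI6 was at 77.1 and 60.4 CPM at E16 and 2.25 and 9.05 CPM at E18 (-3.70 ± 0.51, edgeR adjusted p = 0.00363). Both calls were lost without E18-ZZ, where ISG15 changed by -2.37 and IFI6 by -2.52. The other decreases named by size were APOA1, CXCL14 and ISG12(A), and the other increases SCT, LGR4, MOXD1 and ENSSSCG00000025414. In the other cells ISG15 had early and late means of 49.0 and 4.13 CPM.

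Between E18 and E21, 5 genes were called by edgeR (0.0936%), 3 higher (0.0561%) and 2 lower (0.0374%), against 549 at an unadjusted p under 0.05 and 15 with DESeq2. The count was 51 without E16-ZZ and 53 without E16-DZ, which are not part of this comparison, 16 without E28-ZZ and 12 without E18-DZ. SCT rose by 2.43 ± 0.41 log2 units (edgeR adjusted p = 0.0347), HBM by 1.59 ± 0.23 (edgeR adjusted p = 0.00706) and ENSSSCG00000033190 by 1.42 ± 0.25 (edgeR adjusted p = 0.0360), while KRT18 and APOE were lower. HBM lost its call in this step without E18-ZZ or E21-ZZ, SCT without E18-DZ, E21-ZZ or E21-DZ, and ENSSSCG00000033190 without any of the 4 libraries of E18 and E21.

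From somite at E21 to myotome at E28, 39 genes were called (0.73%, edgeR), 32 higher (0.599%) and 7 lower (0.131%) at E28, a count that includes the rule gene AHSP. HBB and TMCC2 were the 2 higher calls above 2 times the other cells. HBB went from 4377 and 3401 CPM to 6096 and 17119 CPM (1.58 ± 0.31, edgeR adjusted p = 0.0285), and without the 3 cells of E28-DZ over 10% HBB its fold change was 0.50 and its edgeR adjusted p 0.349. TMCC2, a membrane protein of the endoplasmic reticulum, went from 9.25 and 19.2 to 37.6 and 81.5 CPM (2.15 ± 0.46, edgeR adjusted p = 0.0430). The other 30 higher calls included the collagens COL1A1, COL1A2 and COL3A1 and were at up to 2 times the other cells. COL1A1 was at 11.6 and 8.00 CPM at E21 and 169 and 140 CPM at E28, and the mesenchymal sum went from 236 and 248 to 1141 and 950 CPM, whose part in the calls was not tested. Among cells with fewer than 3 genes of every other type 19 genes were called, 6 of them among the 39, and of the 28 of the 39 that were tested there 26 had the same sign. Among the lower calls were the mitotic genes NCAPG, from 80.9 and 73.6 to 25.9 and 12.7 CPM (edgeR adjusted p = 0.0276), and PBK, from 50.9 and 57.6 to 16.5 and 5.09 CPM (edgeR adjusted p = 0.0440). TMCC2, NCAPG and PBK kept their calls in 4, 4 and 2 of the 8 fits without 1 library, and the count of 39 became 2 without E21-DZ, 6 without E28-DZ, 15 without E21-ZZ, 70 without E16-ZZ and 75 without E16-DZ. All 13 S phase genes and 14 of 15 G2 and M phase genes had fold changes below 0 in this step, with medians of -0.84 and -0.72 against -0.01 for all genes, and 0 calls in either list by edgeR (5 and 8 at an unadjusted p under 0.05, where 747 of all 5344 genes were, 0 and 1 by DESeq2).

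Breed differences were few. With the stage as a block, 7 of 5344 genes differed between DZ and ZZ erythroid cells (0.131%, edgeR), all higher in DZ, with 232 at an unadjusted p under 0.05. Of the 7 RHCE was the abundant red cell gene, at 30.0, 111, 94.8 and 118 CPM in ZZ and 67.1, 216, 166 and 232 CPM in DZ from E16 to E28. It was higher in DZ at every stage, by 0.95 ± 0.16 log2 units (edgeR adjusted p = 0.0203). This fit used only stages with both libraries, so leaving out 1 library took out its whole stage. RHCE lost its call without any 1 stage (0.87 to 1.02, edgeR adjusted p up to 0.252). The unnamed gene ENSSSCG00000034853 was at 22.3, 17.5, 13.9 and 7.06 CPM in ZZ from E16 to E28 and at 45.8 CPM or more in every DZ library, lowest at E28 (2.53 ± 0.25, edgeR adjusted p = 0.000246) and held its call throughout. LY75, FGF12, IZUMO4, EXOC7 and ENSSSCG00000038557 were the rest. By CPM, of the 4787 genes tested for late against early 420 (8.77%) were higher in DZ at every stage and 246 (5.14%) lower. The 5 globins had no call by edgeR or DESeq2, 0 at an unadjusted p under 0.05 and a median of 0.14. Embryos of 1 sow stand for a breed at each stage, so the sow and the breed cannot be told apart within a stage.

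The change from early to late was then set against that in the other cells of the same libraries, as an interaction in 1 edgeR model with the library as a block. It was called for 224 of 14611 genes (1.53%), 153 higher (1.05%) and 71 lower (0.486%) in erythroid cells relative to the others, and 440 genes, 71 higher and 369 lower, without TMM scaling. Of the 224 calls 81 held whichever library was left out. The 224 include the rule genes ALAS2, KLF1, SLC4A1 and AHSP. Of the 5 globins 4 were higher by edgeR and 2 by DESeq2. The interaction was 1.99 for HBE1 (edgeR adjusted p = 5.62e-26), 2.61 for HBZ (edgeR adjusted p = 5.00e-45), 1.51 for HBM (edgeR adjusted p = 9.45e-10) and 1.40 for HBB (edgeR adjusted p = 4.95e-11). edgeR draws the spread of a gene toward that of all genes. Such p-values therefore do not measure the gene's own spread between libraries alone. The other cells overlapped between the periods, with HBE1 at 115 CPM in E18-DZ and 119 to 257 CPM in the late libraries. HBB there was at 2.34 CPM in E18-DZ and 0.882 to 10.4 CPM in the late libraries. In the other cells HBE1 had means of 513 CPM early and 172 CPM late, where up to 98.7% of barcodes had a UMI of it, and the part of free RNA in the interaction was not tested. FTL had an interaction of 1.35 (edgeR adjusted p = 4.02e-12), and in the other cells it went from 2481 to 1803 CPM. Of 7 epithelial genes 1 was called, KRT8, higher by 4.72, where the median of the list was -5.77. KRT8 held this call without each library. In the erythroid cells KRT8 changed by -1.55 log2 units. In the other cells it was at 1325 to 5118 CPM early and 2.03 to 66.4 CPM late.

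Genes of cell division were among the interaction calls. Of 15 G2 and M phase genes 6 were higher (CCNB1, CCNB2, CENPF, BIRC5, PLK1 and BUB1, 4 of 15 by DESeq2), where 1.05% of all 14611 genes were. An unadjusted edgeR p under 0.05 was found for 13 of the 15, and for 1295 of all genes. The median of the list was 0.63, against -0.18 for all genes. Of 16 S phase genes 0 were called by edgeR or DESeq2 (2 at an unadjusted p under 0.05, median -0.06). BIRC5 held its call in all 8 fits without 1 library, PLK1 in 6, CCNB1 and CCNB2 in 5, CENPF in 4 and BUB1 in 1. CENPF, a kinetochore protein, was at 281 ± 79.3 CPM early and 303 ± 159 CPM late in erythroid cells and at 521 and 312 CPM in the other cells. BIRC5, survivin, was at 77.2 ± 8.79 and 95.7 ± 33.7 CPM against 205 and 111 CPM. Levels in the erythroid cells overlapped between the periods, and the means of the other cells were lower late.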

How the data were processed

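The study prepared 8 single-cell libraries with a 10x 3′ kit. The authors aligned and counted reads with Cell Ranger 3.1.0 for E16 and 3.0.2 for the other stages, against Sscrofa11.1 with Ensembl release 98, and deposited raw UMI counts per gene and barcode. The version therefore changes together with the stage. Per the study's methods its own analysis removed doublets with DoubletFinder, which the deposited counts, with barcodes beyond the stated limits, precede. Here barcodes with at least 200 genes, at most 30000 UMIs and at most 10% of UMIs on 13 mitochondrial genes were kept, 82394 of 90688. Erythroid cells were selected by UMIs of the marker genes, without clustering, and doublets scored by Scrublet (317 to 1185 barcodes per library) were removed only as an alternative. A UMI in another barcode can be free RNA, and intervals cover counting error only.

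The members and gene lists were chosen with earlier results of these data known. UMIs were summed over the erythroid cells of each library (20 cells or more, 414054 to 2219386 UMIs). For the printed CPM these sums were scaled by TMM over all measured genes (factors 0.757 to 1.28). Each edgeR fit took new TMM factors from the genes past its filter. Printed CPM and fold changes are therefore not on exactly the same scale. edgeR 4.0.16 (R 4.3.3, limma 3.58.1) fitted quasi-likelihood models over all genes past the filter on low counts, with breed as covariate for stage and stage as block for breed, and Benjamini-Hochberg adjustment at 0.05. The interaction fitted erythroid and other cells of the same libraries together. Single values were compared by exact two-sided permutation of 4 against 4 libraries (70 splits), 11 tests in 1 family. With 1 library per stage and breed, p-values measure only the spread between libraries, which may be technical.

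Named genes were the rule genes, every globin, up to 4 genes of highest CPM per list, the 10 largest changes each way among non-overlapping calls for late against early, the 5 largest for breed, each step and the interaction, and the 20 highest ratios to other cells at 100 CPM or more in erythroid cells. Others, such as H1F0, NPM1, HMGA1, TMCC2 and list members named because they were called, were chosen after their values were seen. A further result is not reported here. Alternatives were DESeq2 1.42.0, no TMM, no filter, other cell limits, doublets removed, globins left out and each library left out. Further alternatives, chosen after seeing the data, left out ENSSSCG00000007978 as well, kept cells of 20% globin or more, left out 3 cells of high HBB, or applied the bound on other cell types to further comparisons. On simulated data 26.3% of genes changed 2-fold and 92.8% of those changed 4-fold were recovered for late against early (4451 genes), and 11.8% and 61.5% for E28 against E21. Python 3.11.15 with scipy 1.17.1, pandas 2.3.3 and scanpy 1.11.5 was used, and 0 columns were left without a sample. Upstream sequences came from RefSeq annotation on Sscrofa11.1.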

Additional observations from a re-analysis of the deposited data

Results flagged for a closer look

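Of 78 groups of 4 libraries, 2 had a library far from the other 3 by Dixon's ratio at its 95% critical value, where chance gives about 1 in 20. F10 was at 37.0 CPM in E21-ZZ, above the other late libraries (ratio 0.893). SPINK4 was at 20.9 CPM in E16-DZ, below the other early libraries (ratio 0.855).

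The stage difference in erythroid cells departed from that in the other cells of the same libraries, by the interaction term of edgeR, in the 224 genes called, of which the 5 largest differences each way are given. It was higher in erythroid cells for ENSSSCG00000011875 (12.13 on the log2 scale), the muscle fusion gene MYMK (9.36), BARX1 (8.49), ASZ1 (6.88) and CALB1 (6.62). It was lower for ENSSSCG00000047725 (-12.69), ENSSSCG00000026365 (-12.40), ENSSSCG00000021041 (-12.10), the transcription factor ISL1 (-11.49) and TBC1D13 (-11.40). Of these 10, BARX1 kept its call in each fit without 1 library, CALB1 in 1 of 8 (5.99 to 12.25) and TBC1D13 in 3 of 8. MYMK, ASZ1, ISL1 and ENSSSCG00000021041 kept it in 5 of 8. Over all settings MYMK ranged from 1.59 to 9.85 and TBC1D13 from -11.60 to -3.60. Such fitted values of sparse genes depend on the prior count and are no bounds.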

How the results depend on the processing

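The lower late share of erythroid cells kept its direction in every setting run, at -2.99 points with a mitochondrial limit of 5%, -2.01 points without the E16 libraries, -1.64 without the E28 libraries and -1.87 to -1.15 with 1 library left out. The globin share was higher by 6.23 and 12.9 points without E16 or E28, and by 8.98 to 13.2 with 1 library left out. Exact permutation tests of these smaller sets cannot go below 0.133 and 0.0571. Median UMIs per cell reversed to -235 without E18-ZZ and -520 without E21-DZ (-520 to 1913 with 1 library left out).
The late against early count of 93 became 152 with DESeq2, 848 without TMM, 486 without the filter, 3 without E16, 1 without E28 and 15 to 120 with 1 library left out. The breed count of 7 became 4 with DESeq2, 46 without the filter, 2 without E16, 11 in cells of 20% globin or more and 2 to 6 with 1 stage left out. For E18 against E16 (66) it was 131 without doublets, 28 with DESeq2, 248 without TMM, 180 without the filter, 101 under the bound on other cell types and 15 to 74 with 1 library left out. For E21 against E18 (5) it was 10 without doublets, 15 with DESeq2, 32 without TMM, 92 without the filter, 2 without globins and ENSSSCG00000007978, 8 in cells of 20% globin or more, 3 without the HBB-rich cells, 11 under the bound and 4 to 53. For E28 against E21 (39) it was 188 without the filter, 19 under the bound and 2 to 75. The interaction count of 224 became 124 with DESeq2, 440 without TMM, 410 under the bound and 131 to 242. The causes were not tested. Of 2722 values of named genes 350 lost and 42 gained a call, and 0 changed sign where either fit had a call. Changes of sign without a call in either fit were not counted. On simulated data 26.3% of 2-fold changes were recovered for late against early, so that such changes can be missed.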
